A study of Mus musculus with 12 samples.

Results

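The peaks described here are those of the histone variant H2A.Z in spermatogenic cells of the mouse testis, with and without the chromatin remodeller INO80. They were taken as all listed H2A.Z peaks on chromosomes 1 to 19 and X, 33818 of the wild-type list and 26197 of the Ino80 knockout list, which is 60015 of the 78165 peaks of the series (an INO80 list holds the others). Both groups were P18 mice (postnatal day 18) of mixed background. The control group carried the genotype Ino80WT, and the other Ino80cKO, a testis-specific deletion made with Stra8-Cre, in which the promoter of Stra8, active in germ cells shortly before meiosis, drives the recombinase. Each group had 2 H2A.Z ChIP-seq libraries and 2 input libraries, and each peak list stands for both ChIP libraries of its group. The labels do not tie the libraries to single animals. Cells were released from the tubules with collagenase and trypsin, filtered and fixed with formaldehyde, with no sort for germ cells in the protocol, and chromatin was cut with micrococcal nuclease, which spares DNA on nucleosomes.

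H2A.Z replaces the ordinary histone H2A in some nucleosomes, mostly those that flank gene starts and enhancers. The SRCAP and EP400 complexes put it in, and INO80 is an ATP-driven remodeller that slides nucleosomes and can exchange H2A.Z for H2A. In male germ cells the first meiotic prophase, with its programmed DNA breaks, homologue synapsis and silencing of the sex chromosomes, falls in the juvenile testis. A peak list shows where H2A.Z signal passed a caller's threshold, so an outline can shrink because fewer cells carry H2A.Z there or because each carries less, which cannot be told apart here. Sequencing depth, precipitation efficiency, the share of each germ-cell stage and genotype cannot be told apart either, because each genotype has 1 list with no scores and no values per library. No comparison below therefore has a test or a replicate error, and the intervals given are 95% Wilson intervals that cover counting error only. Peaks of the 2 lists were paired where they overlapped by at least 1 bp.

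The changes at gene starts can be seen on the DNA itself. The promoters below were chosen to show 3 kinds of change: a start that the knockout outline left on its upstream side, a start left on its downstream side, and a gap that opened over the start inside a wild-type peak. Each sequence is the 250 bases before the listed gene start, 5′ to 3′ along the gene, from the RefSeq promoter table (GRCm38.p6, the same assembly as mm10). Capitals mark bases inside the wild-type H2A.Z outline and outside the knockout one, and lower case marks bases in both outlines or in neither.
Sohlh1: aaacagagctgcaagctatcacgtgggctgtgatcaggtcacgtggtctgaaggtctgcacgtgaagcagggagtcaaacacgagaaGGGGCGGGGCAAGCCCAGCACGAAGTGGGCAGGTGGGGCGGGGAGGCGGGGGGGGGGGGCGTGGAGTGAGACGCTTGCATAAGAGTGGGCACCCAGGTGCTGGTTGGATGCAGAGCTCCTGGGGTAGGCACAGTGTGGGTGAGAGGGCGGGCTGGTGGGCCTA
Ep400: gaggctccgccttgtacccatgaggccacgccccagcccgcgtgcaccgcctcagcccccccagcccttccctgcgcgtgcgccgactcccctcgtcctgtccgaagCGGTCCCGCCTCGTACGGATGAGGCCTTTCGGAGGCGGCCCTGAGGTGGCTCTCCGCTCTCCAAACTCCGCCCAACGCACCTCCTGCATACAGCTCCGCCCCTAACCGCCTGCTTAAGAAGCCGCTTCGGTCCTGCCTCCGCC
Rnf8: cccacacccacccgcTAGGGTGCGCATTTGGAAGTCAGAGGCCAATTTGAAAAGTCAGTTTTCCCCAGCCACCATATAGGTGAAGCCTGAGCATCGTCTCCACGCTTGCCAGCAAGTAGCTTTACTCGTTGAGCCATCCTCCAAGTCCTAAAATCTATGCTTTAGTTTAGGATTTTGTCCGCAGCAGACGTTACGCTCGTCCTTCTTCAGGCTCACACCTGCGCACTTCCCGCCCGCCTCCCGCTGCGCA
Rpl28: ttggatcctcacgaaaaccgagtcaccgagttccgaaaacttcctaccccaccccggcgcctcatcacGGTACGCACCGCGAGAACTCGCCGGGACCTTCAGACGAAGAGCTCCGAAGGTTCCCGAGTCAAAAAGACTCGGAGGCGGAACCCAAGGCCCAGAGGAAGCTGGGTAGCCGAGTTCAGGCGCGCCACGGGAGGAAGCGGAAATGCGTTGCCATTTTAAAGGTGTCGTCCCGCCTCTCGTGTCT
Sox2: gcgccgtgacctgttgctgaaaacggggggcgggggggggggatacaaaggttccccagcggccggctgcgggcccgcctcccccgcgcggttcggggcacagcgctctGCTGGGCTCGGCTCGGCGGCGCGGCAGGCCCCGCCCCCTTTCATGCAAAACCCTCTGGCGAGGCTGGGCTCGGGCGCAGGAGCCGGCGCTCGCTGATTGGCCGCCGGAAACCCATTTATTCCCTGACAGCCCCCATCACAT
Stag1: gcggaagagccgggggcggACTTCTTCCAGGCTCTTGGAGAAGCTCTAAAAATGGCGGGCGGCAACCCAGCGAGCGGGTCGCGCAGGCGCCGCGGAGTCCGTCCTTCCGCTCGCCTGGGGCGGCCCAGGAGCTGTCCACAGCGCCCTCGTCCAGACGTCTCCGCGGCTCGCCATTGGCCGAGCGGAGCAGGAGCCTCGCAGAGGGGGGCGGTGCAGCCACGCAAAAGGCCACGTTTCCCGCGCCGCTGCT

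Sohlh1 encodes a transcription factor of differentiating spermatogonia, and its sequence lies at chr2:25847249-25847498 on the minus strand. The wild-type outline ran from 163 bp upstream of the start to 178 bp downstream, and the knockout outline from 72 to 263 bp downstream, so the 163 bases next to the start left the outline. Ep400 encodes the ATPase of an H2A.Z-depositing complex (chr5:110770718-110770967, minus strand), and 143 of its 250 bases left the outline in the same way. At Rnf8, a ubiquitin ligase of the DNA damage response that is needed when histones are exchanged in spermatids (chr17:29614539-29614788, plus strand), 235 of 250 bases left it. At these 3 promoters the knockout outline began inside the gene, 72 bp after the start at Sohlh1 and 148 bp after it at Rnf8.

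Rpl28 encodes a protein of the large ribosomal subunit (chr7:4792715-4792964, plus strand). Its wild-type outline of 1125 bp covered the start, and its knockout outline of 238 bp lay from 420 to 183 bp upstream, so the last 182 bases before the start were lost and the upstream end was kept. Sox2, a transcription factor of pluripotent and neural cells (chr3:34649745-34649994, plus strand), had a wild-type peak of 2654 bp and 2 knockout pieces that left 576 bp around the start free, of which 141 bases are printed in capitals. Stag1, a cohesin subunit (chr9:100643198-100643447, plus strand), had 3 knockout pieces within a peak of 1854 bp, with a gap of 438 bp over the start and 231 of the printed bases in it.

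Across the genome the most frequent change was a narrower outline in the same place. Of the wild-type peaks, 22367 (66.1%) had exactly 1 knockout partner that overlapped no other wild-type peak. A further 951 (2.81%, interval 2.64 to 2.99) were split into several knockout peaks, 320 were joined to a neighbour, and 10164 (30.1%, interval 29.6 to 30.5) had no partner. Only 1733 knockout peaks (6.62%, interval 6.32 to 6.92) had no wild-type partner. The unpartnered peaks were the narrow ones: their median width was 231 bp in wild type and 185 bp in the knockout, against 606 bp for the paired and 1204 bp for the split wild-type peaks.

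How close the unpartnered peaks lay to the pairing rule also differed between the lists. Of the 1733 knockout-only peaks, 320 (18.5%) lay within 250 bp of a wild-type peak and 650 (37.5%) within 1 kb, and the median distance was 5235 bp. Wild-type-only peaks were farther from the other list: 340 of 10164 (3.35%) lay within 250 bp of a knockout peak, and the median distance was 17262.5 bp. When an overlap as long as the DNA on a nucleosome core was required, 33.5% of wild-type peaks were without a partner. For the widest 75% of wild-type peaks, paired with the full knockout list, the share was 17.2%.

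Among the 22367 pairs, 16141 (72.2%) were narrower in the knockout and 6151 (27.5%) wider. The median wild-type width was 606 bp and the median knockout width 469 bp. The median change within pairs was -73 bp, with quartiles of -208 and 8 bp, and the median ratio of knockout to wild-type width was 0.877, with quartiles of 0.659 and 1.015. The knockout outline lay wholly inside the wild-type outline in 46.4% of pairs and the reverse in 11.3%.

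The narrowing was shared evenly by both sides in sum, but not pair by pair. The low-coordinate edge moved inward by a median of 26 bp and the high-coordinate edge by 25 bp, and both means were 54.8 bp. Yet the movements of the 2 edges of a pair were almost unrelated (Pearson's r 0.009 and Spearman's rho 0.011 over 22367 pairs, which share 2 lists). With a tolerance of 10 bp, 7893 pairs (35.3%) were trimmed on both sides, 3822 (17.1%) on one side with the other edge in place, and 6910 (30.9%) on one side with the other edge moved outward. Another 1494 (6.68%) were extended on both sides, 1699 (7.60%) on one, and 549 (2.45%) kept both edges.

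Midpoints moved by less than a nucleosome in most pairs. The median distance between the midpoints of a pair was 49 bp, with quartiles of 20 and 101 bp, and the signed median was 0.5 bp. A shift of more than the length of DNA on a nucleosome core, called a core length below, was found in 3109 pairs (13.9%), and in 694 (3.10%) the knockout midpoint fell outside the wild-type outline. These shares differed little with position: 13.3% of pairs at gene starts, 13.8% in gene bodies and 14.6% between genes shifted by more than a core length.

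Whether a peak had a partner at all differed with its position in the genome. It differed still more with width, from 73.1% of wild-type peaks unpartnered at 200 bp or less to 0.0887% above 1500 bp. A peak was placed at a gene start when it lay within 1 kb of a listed start of a protein-coding gene. Wild-type peaks at gene starts were unpartnered in 1299 of 12109 cases (10.7%, interval 10.2 to 11.3), those at gene 3′ ends in 179 of 540 (33.1%), those in gene bodies in 2642 of 6309 (41.9%), and intergenic ones in 5405 of 11277 (47.9%, interval 47.0 to 48.9). Over all widths splitting ran the other way, with 615 peaks (5.08%) at gene starts and 0.851% between genes. Among wild-type peaks of like width the split shares were closer. They were 5.85% at gene starts and 4.17% elsewhere at 800 to 1000 bp. At 1000 to 1500 bp they were 11.0% and 12.6%, and above 1500 bp 21.1% and 21.4%. Knockout-only peaks followed the order of the wild-type-only ones, with 2.65% of knockout peaks at gene starts, 10.6% in gene bodies and 12% between genes. Peaks at starts were wider, with a median wild-type width of 719 bp against 357 bp in gene bodies and 317 bp between genes.

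The difference in the unpartnered share between gene starts and all other positions was also present among peaks of like width. Among wild-type peaks of 400 to 600 bp, 7.71% at gene starts had no partner (interval 6.60 to 8.99) and 28.6% elsewhere (interval 27.1 to 30.1), and among those of 200 bp or less the shares were 56.6% and 77.4%. Knockout peaks of 200 bp or less were unpartnered in 14.3% of cases at starts and 24.8% elsewhere. Over pairs of all widths, 34.6% of pairs at gene starts, 36.2% at 3′ ends, 37.0% in gene bodies and 36.7% between genes were trimmed on both sides. Among pairs with a wild-type width of 600 to 800 bp the share was 35.7% at gene starts and 50.7% elsewhere. This share was not recomputed for pairs matched on mean or knockout width, so no difference in trimming of like pairs by position is stated.

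How much paired peaks narrowed by position depended on which width was used to match them. The median ratio was 0.907 at gene starts, 0.817 at 3′ ends, 0.818 in gene bodies and 0.807 between genes. Matched on a wild-type width of 600 to 800 bp, it was 0.890 at starts and 0.700 elsewhere, a difference of 0.190. Matched on the mean of both widths the ratios were 0.889 and 0.841, and matched on the knockout width 0.914 and 0.946, so the difference fell to 0.048 and then turned to -0.031. The direction thus turned with the choice of width, and no difference in the narrowing of like pairs by position is stated here.

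**Figure D1:**
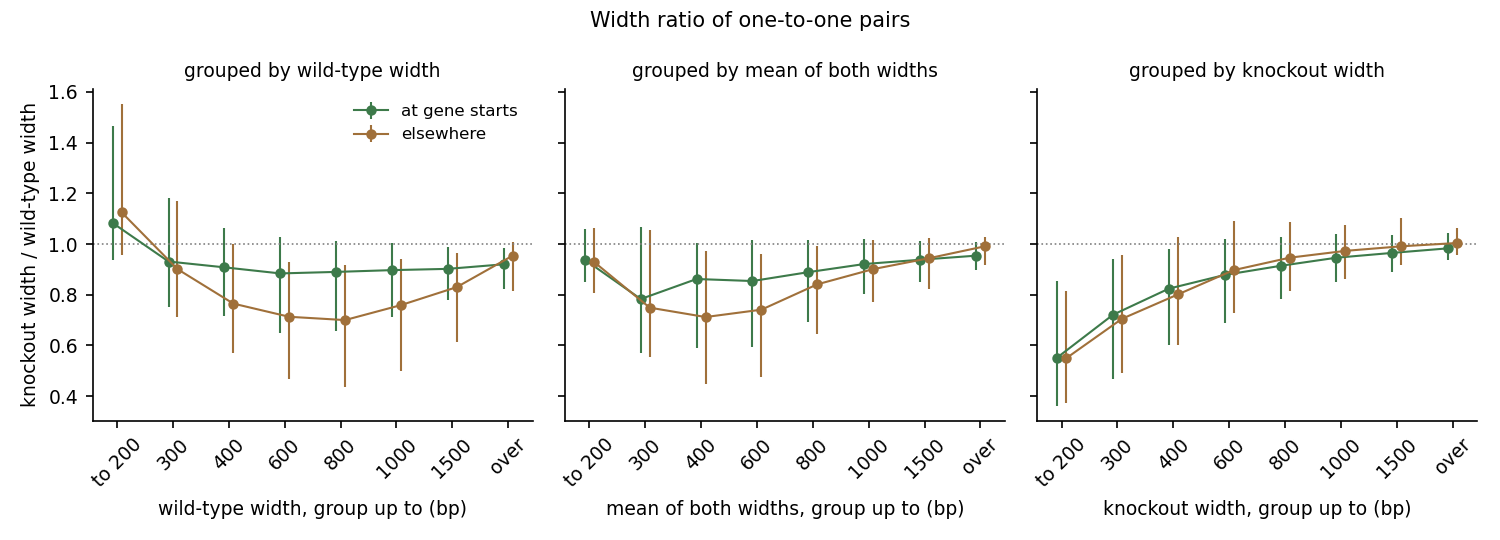
Knockout width divided by wild-type width (y axis) of one-to-one H2A.Z pairs by width group in bp (x axis), for pairs at gene starts and elsewhere. Points are medians and bars are quartiles, with pairs grouped by wild-type width (left), mean width (middle) and knockout width (right). At 600 to 800 bp the medians are 0.890 and 0.700 on the left, 0.889 and 0.841 in the middle, and 0.914 and 0.946 on the right.

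Read along the direction of transcription, the H2A.Z outline retreated on both sides of the gene start, and its upstream edge had the longer tail of large retreats. Over 9158 oriented pairs at gene starts, the upstream edge moved inward by a median of 22 bp (mean 58.0 bp) and the downstream edge by 24 bp (mean 47.3 bp). The upstream edge moved inward more than the downstream edge in 51.1% of pairs (interval 50.1 to 52.1), in 51.8% on the plus strand and 50.3% on the minus strand. Edges at the same distance from the start differed more: of upstream edges that reached 240 to 360 bp from the start in wild type, 25.2% retreated by more than a core length, against 10.9% of downstream edges at that distance. At 360 to 480 bp the shares were 26.3% and 12.2%, and beyond 720 bp 31.4% and 28.5%. The median wild-type edge lay at -294 bp upstream and 504.5 bp downstream, so 240 to 360 bp was a usual reach upstream and a short one downstream. The part of this in the contrast was not tested.

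The edges stopped at preferred places. In 8080 pairs with a single listed start, the median upstream edge lay at -294 bp in wild type and -236 bp in the knockout, and the median downstream edge at 504.5 and 466 bp. Upstream edges gathered in a pair of bands, one between 320 and 280 bp upstream of the start, with 512 wild-type and 443 knockout edges, and one at the start or just inside the gene. In that second band the fullest 40 bp bin was 0 to 40 bp in wild type, with 617 edges, and 40 to 80 bp in the knockout, with 798. Outlines that began within the first 120 bp of the gene made up 17.7% in wild type (interval 16.9 to 18.6) and 22.4% in the knockout (interval 21.5 to 23.3), and those that began between 480 and 160 bp upstream 38.2% and 34.9%. On the downstream side, edges at 120 to 360 bp went from 15.7% to 20.8%, and those at 480 to 720 bp from 32.1% to 29.8%.

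**Figure D2:**
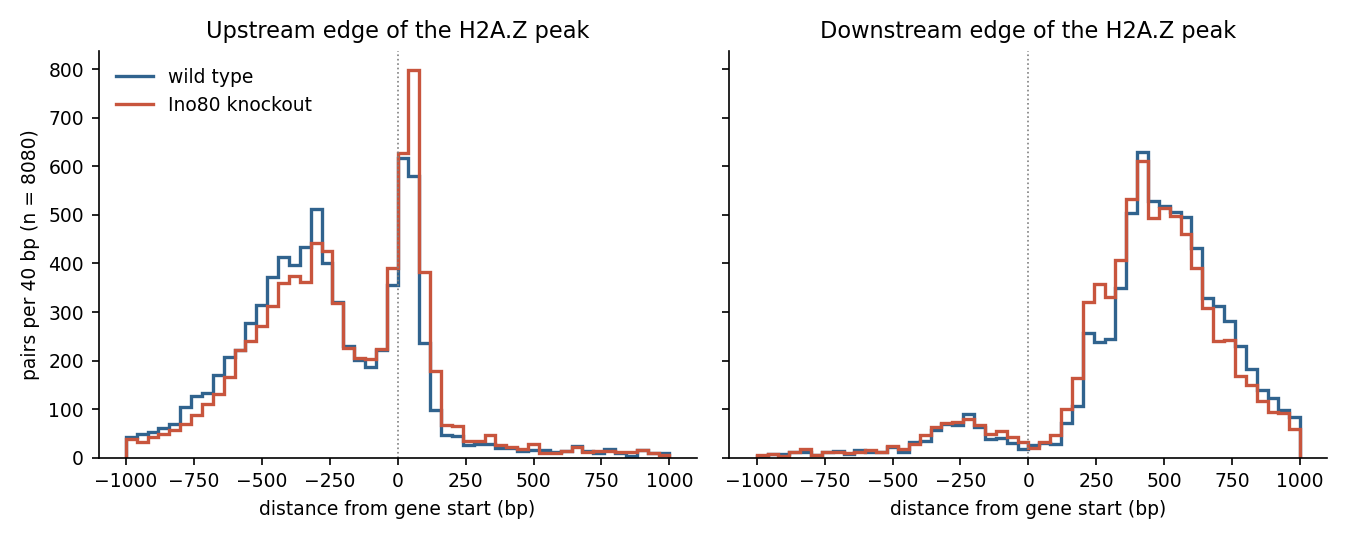
Number of one-to-one H2A.Z pairs per 40 bp (y axis) by the distance of the upstream edge (left) and downstream edge (right) from the gene start in bp (x axis), for 8080 pairs with a single listed start. Lines are the wild-type and Ino80 knockout lists, and the upstream-edge peak just inside the gene holds 617 wild-type edges at 0 to 40 bp and 798 knockout edges at 40 to 80 bp.

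Outlines that covered a start in wild type thus often began after it in the knockout. Of 5450 pairs whose wild-type outline lay over the start, 4582 (84.1%) still covered it, 755 (13.9%, interval 13 to 14.8) began downstream of it, and 113 (2.07%, interval 1.73 to 2.49) ended upstream of it. With the widest 50% of each list the share that came to begin downstream was 8.28% (interval 7.52 to 9.10). In the 755 pairs the median width went from 738 to 390 bp, with 307 bp lost on the upstream side and 27 bp on the downstream side. In the 113 it went from 747 to 295 bp, with 25 bp lost upstream and 348 bp downstream. The upstream part of these outlines lay nearer to the start than the downstream part, so a retreat of 1 size on both sides also uncovers more starts from the upstream side. The reverse change was seen at 193 of 1931 peaks downstream of the start (9.99%), which came to cover it, and at 16 of 699 upstream peaks (2.29%).

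Counted by gene, the same held for 722 of 5269 genes with a pair over the start (13.7%) on the downstream side and 107 (2.03%) on the upstream side. Kctd7, an adaptor of a ubiquitin ligase, had one of the 10 largest midpoint shifts at gene starts: its outline ran from -983 to 405 bp in wild type and from 50 to 454 bp in the knockout. Bax, a promoter of apoptosis, went from -707 to 607 bp to an outline from 109 to 398 bp. Kdm4a, a histone lysine demethylase, went from -729 to 600 bp to an outline from 49 to 575 bp, and Htt, the huntingtin gene, from -612 to 432 bp to one from 130 to 591 bp. At Kdm4a and Bax the downstream edge stayed within the wild-type outline, and at Kctd7 and Htt it moved outward.

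Genes that lost the outline on the gene side were fewer. Spry2, an inhibitor of receptor tyrosine kinase signalling, had an outline from -1128 to 802 bp in wild type and from -1180 to -106 bp in the knockout. M1ap, a gene needed for male meiosis, went from 997 bp over the start to 1 core length, ending 73 bp upstream of it. Rbx1, a subunit of cullin ubiquitin ligases, and Gamt, an enzyme of creatine synthesis, went from 1069 to 332 bp and from 857 to 151 bp. More ribosomal protein genes were of this kind with Rpl28: Rplp2 went from 810 to 197 bp, Rpl15 from 958 to 353 bp and Rpl39l from 548 to 207 bp.

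**Figure D3:**
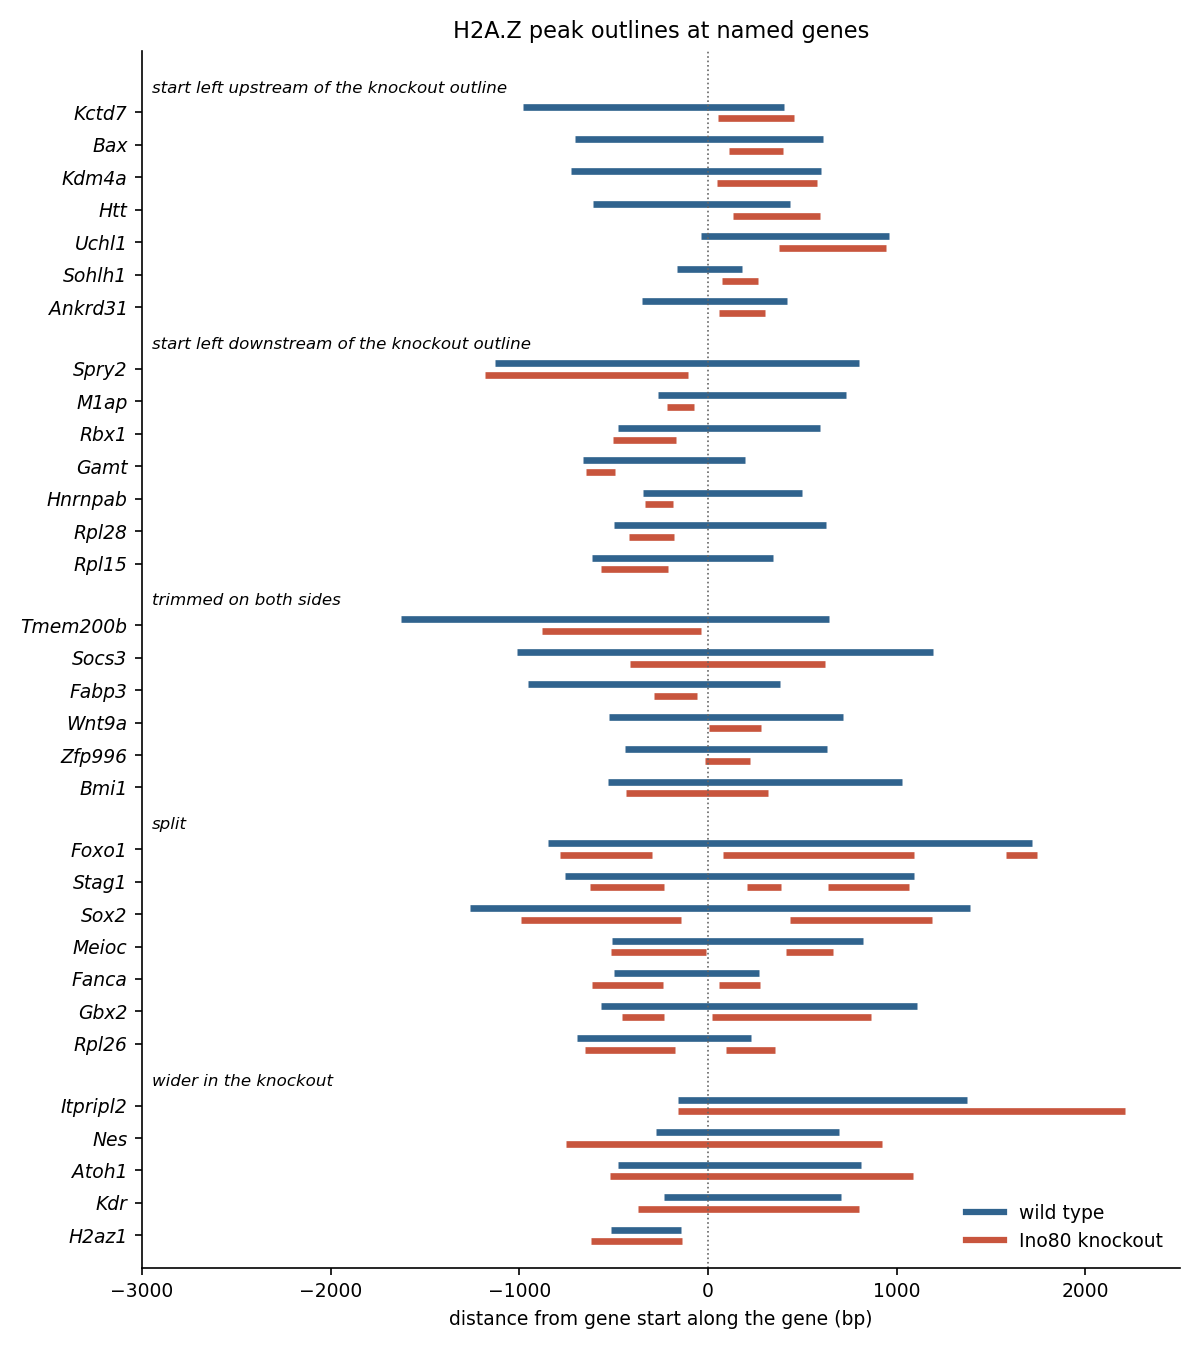
H2A.Z outlines of named genes along the direction of transcription, as distance from the gene start in bp (x axis), with the wild-type outline above the knockout outline for each gene (y axis). Bars are peaks, groups of genes are kinds of change, and the vertical line is the gene start: Kctd7 begins at -983 bp in wild type and 50 bp in the knockout, and Sox2 shows a gap of 576 bp.

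In composition the uncovered starts lay close to those whose outline lay downstream of the start in both genotypes. In genes with 1 listed start, over a window of 300 bases (250 before and 50 after the start), the 659 promoters whose outline came to begin downstream had a median GC content of 58.7% and 19 CpGs. The 3966 that stayed covered had 64.3% and 23 CpGs, and the 1394 whose outline lay downstream in both genotypes had 57.0% and 18. The letters AAGATGGCG, the core of the YY1 motif, on either strand, stood in 5.01% of the first, 1.97% of the second and 4.02% of the third, against 2.03% of all 14513 promoters of the same length. CGGAAG, the core shared by ETS-family motifs, whose last 3 letters can be the first 3 of AAGATGGCG, stood in 36.6%, 27.6% and 33.3%, against 21.5% of all. CCAATC stood in 23.8%, 17.5% and 29.5%, against 19.2% of all, and TATAAA in 8.80%, 4.77% and 10.4%, against 14.4% of all. The uncovered promoters lay between the other groups in GC content, CpG number and the shares of CCAATC and TATAAA. Their shares of AAGATGGCG (33 of 659) and CGGAAG (241 of 659) were above both. The promoters downstream in both genotypes came near, with 56 and 464 of 1394. No intervals were computed for these shares, so the order of these 659 and 1394 promoters is not resolved.

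Splitting opened a gap of about the same size in most peaks. The 951 split peaks had 971 gaps, with a median of 307 bp and quartiles of 272 and 384 bp. No gap was smaller than 251 bp, which is also the smallest distance between neighbouring peaks in the lists, so narrower gaps could not be seen. Of the split peaks 932 had 2 pieces, 18 had 3 and 1 had 4. The gap was centred in the central one of 3 equal parts of the wild-type peak in 711 of 971 cases (73.2%, interval 70.4 to 75.9), in 75.6% at gene starts and 70.8% elsewhere. No piece could be narrower than a core length and no gap smaller than 251 bp, which limits how near to the ends a gap can be centred. The share that these limits alone would give was not tested.

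At gene starts most gaps lay over the start. In split peaks that held a start, 396 of 591 gaps (67.0%, interval 63.1 to 70.7) covered it. The share that the gap size and the place of the start within the peak alone would give was not tested. With the widest 50% of each list the share was 44.8% (interval 33.5 to 56.6). In 411 single-start peaks the median centre of the gap lay upstream of the start, at -67.5 bp (quartiles -140.2 and 79.8 bp), and 56.9% lay between 300 bp upstream and the start. Meioc, a meiotic RNA regulator, had a wild-type outline from -509 to 820 bp and knockout pieces from -517 to -11 bp and from 415 to 664 bp. Fanca, of the Fanconi DNA repair pathway, kept pieces on both sides of a gap of 294 bp, and Rpl26, a ribosomal protein gene, of one of 270 bp. Split promoters were rich in CpG, with a median of 25 per 300 bases and a GC content of 64.7%, against 21.5 and 62.0% for one-to-one pairs.

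Most of the peaks with 3 or more pieces lay at gene starts. The peak shared by Gpr108 and Trip10, a pair of neighbouring genes, covered 2833 bp in wild type and 1355 bp in 4 knockout pieces. Among those with 3 pieces, Efna5, an ephrin ligand of axon guidance, held 4351 bp in wild type, the widest peak of either list, and 3857 bp in the knockout. Foxo3 and Foxo1, forkhead factors of germ-line and insulin signalling, went from 3723 to 2471 bp and from 2570 to 1659 bp, and Sfmbt2, a polycomb-associated protein, from 3196 to 1964 bp. Pcdh7, a protocadherin of cell adhesion, went from 3475 to 2858 bp, and Dnmt3a, a de novo DNA methyltransferase, from 2158 to 1625 bp. Kcnc1, a potassium channel subunit, had only 2 pieces, with a gap of 788 bp, and went from 2065 to 965 bp.

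Joining was the rarer event. In the knockout 159 peaks joined 2 or more wild-type peaks, 94 of them at gene starts, and the bridged gap was 296 bp in the median. Smarca2, the ATPase of a SWI/SNF complex, and Egr2, an immediate early transcription factor, each had a knockout peak that joined 3 wild-type peaks, of 3896 and 1999 bp. Sall1, a zinc finger regulator of kidney development, and Fzd5, a Wnt receptor, each had 2 wild-type peaks joined in a knockout peak of 3162 and 2374 bp.

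The largest changes at single gene starts came in several forms. Among the 10 trimmed farthest on both sides were Tmem200b, from 2270 to 844 bp, Plcxd1, from 1816 to 183 bp, and Socs3, an inhibitor of cytokine signalling, from 2210 to 1034 bp. Hspa1a, an inducible heat shock protein, and Krtcap2, an oligosaccharyltransferase subunit, were left with 1 core length, the smallest width in the lists, from 1164 and 1483 bp. Trimmed on 1 side alone were Dpf3, a SWI/SNF subunit, from 1870 to 1039 bp with its upstream edge moved by 9 bp, and Brsk2, a kinase of neuronal polarity, which lost 812 bp upstream while its downstream edge moved by 4 bp.

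Some outlines moved or grew. The midpoint moved farthest at Mpp2, a membrane scaffold protein, whose outline ran from -799 to 115 bp in wild type and -56 to 583 bp in the knockout, and at Lipe, the hormone-sensitive lipase, with -791 to 651 bp and -829 to -510 bp. The widest gains were at Sema4c, a semaphorin, from 667 to 1982 bp, Itpripl2, from 1533 to 2368 bp, and Slc7a14, an amino acid transporter family member, from 266 to 996 bp. Mecom, a transcription factor of blood stem cells, went from 1256 to 1964 bp and Nes, the intermediate filament nestin, from 971 to 1674 bp. These gains stand against 27.5% of all pairs that were wider in the knockout.

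Whole peaks of some size were also present in 1 list alone. Widest among those without a knockout partner were the wild-type peaks at Casz1, a zinc finger factor (1915 bp, with a knockout peak 388 bp away), Cldn5, a tight junction protein of endothelium (1440 bp, 34328 bp away), and Slc18a3 within Chat, the acetylcholine transporter and synthase genes (1410 bp, 149 bp away). Elavl3, a neuronal RNA-binding protein, had one of 1276 bp. The widest knockout-only peaks at gene starts lay at Ednrb, an endothelin receptor (1214 bp, with a wild-type peak 25889 bp away), at Ccdc103, a dynein arm assembly factor of cilia (801 bp), and at Ghrh, growth hormone-releasing hormone (615 bp). Another, of 614 bp at Kdm2b, a histone demethylase that binds CpG-rich DNA, lay 203 bp from a wild-type peak.

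The share of unpartnered peaks differed between chromosomes and was highest on chromosome 10. On chromosome 10, 784 of 2014 wild-type peaks had no partner (38.9%, interval 36.8 to 41.1), against 29.5% on all the others together, and the next were chromosome 16 with 35.3% and chromosome 3 with 34.7%. Chromosome 11 had the lowest share, 25%. The excess on chromosome 10 lay away from gene starts, where 54.6% had no partner (44.8% on the other autosomes), while at gene starts the shares were 11.2% and 10.4%. It was present in each width class away from starts: 75.3% against 70.4% at 300 bp or less, 42.2% against 34.6% at over 300 and up to 600 bp, and 15.3% against 9.78% above. The segment from 100 to 120 Mb reached 51.9% (148 of 285, interval 46.1 to 57.7), and the other 20 Mb segments lay between 35.2% and 40.0%. Peaks of that segment were also the narrowest, with a median of 304 bp against 358 to 426 bp in the other segments, and the part of width in this result was not tested.

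The X chromosome differed at its gene starts. There 73 of 320 wild-type peaks were unpartnered (22.8%, interval 18.6 to 27.7), against 10.4% on autosomes, and away from starts 36.3% against 45.5%. X-linked start peaks were narrower, with a median of 454.5 bp against 727 bp, and within width classes the shares were 61.7% and 46.9% at 300 bp or less, 9.68% and 10.6% at over 300 and up to 600 bp, and 2.94% and 1.22% above. Knockout-only peaks were also more frequent on the X, with 10.6% of its knockout peaks against 6.55% on autosomes. Of the 73 unpartnered X-linked start peaks, 58 were at most 300 bp wide.

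Gene-poor regions had the highest shares of unpartnered peaks. For peaks away from gene starts, 57.5% had no partner where no gene start lay within 500 kb (interval 54.8 to 60.1), 53.0% with 1 to 3 starts, 46.9% with 4 to 9, 38.4% with 10 to 19, and 35.7% with 20 or more (interval 33.8 to 37.7). The order held among peaks of 300 bp or less, from 77.8% to 64.1%, and of over 300 and up to 600 bp, from 44.9% to 26.9%. Above 600 bp the 3 gene-poorest groups were alike, at 12.1%, 12% and 12.2%, and the other two had 7.90% and 6.83%. The width ratio of the pairs in these groups lay between 0.796 and 0.845 without such an order.

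**Figure D4:**
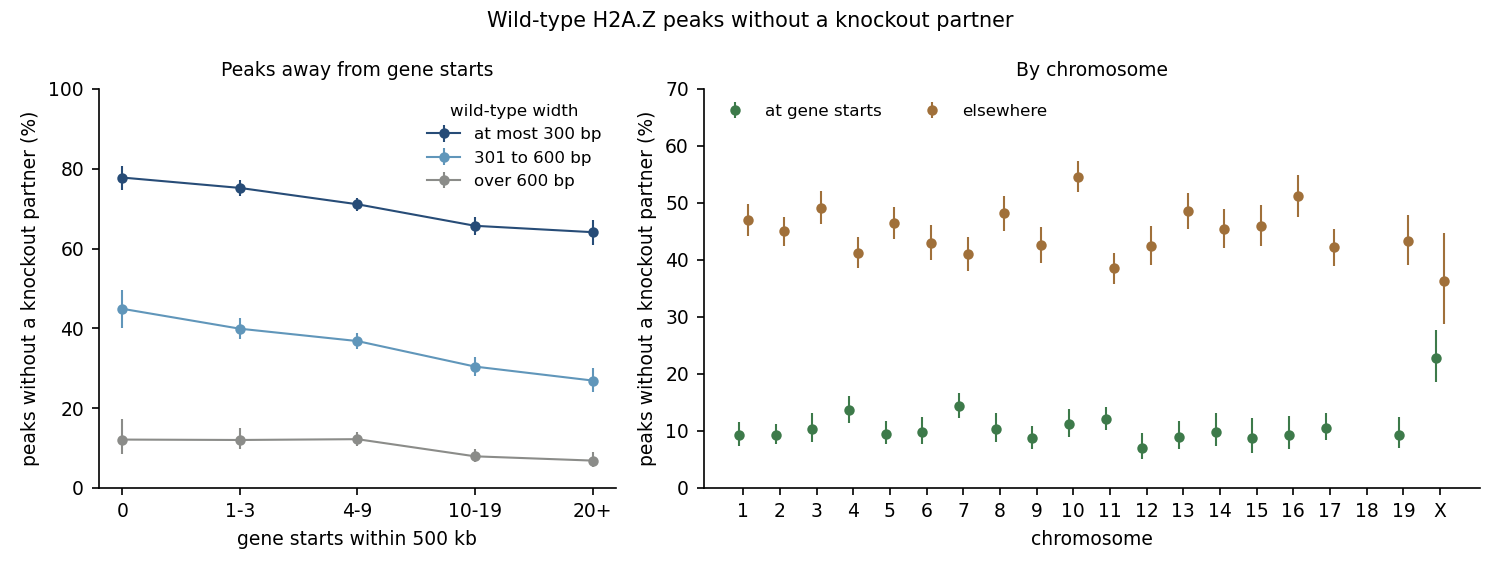
Share of wild-type H2A.Z peaks without a knockout partner in percent (y axes), by the number of gene starts within 500 kb for peaks away from gene starts, in 3 width classes (left), and by chromosome at gene starts and elsewhere (right; chromosome 18 has no listed starts). Bars are 95% Wilson intervals, and the share elsewhere is 54.6% on chromosome 10 against 44.8% on the other autosomes.

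The distance to the next peak and the length of the host gene were also read. Peaks away from starts that lay over 100 kb from any other wild-type peak were unpartnered in 61.1% of cases, against 39.6% of those with a neighbour at 1 to 5 kb, and those with a neighbour at 250 to 500 bp in 52.2%. Among peaks of 300 bp or less these shares were 78.5%, 65.6% and 70.1%. Within gene bodies the share was 37.3% in genes of up to 20 kb and 47.8% in genes above 300 kb, but for peaks over 600 bp it was 8.74% and 7.98%. Among the 21 genes with at least 10 peaks in their body, chosen after their values were seen, the median share was 48.0%. Tshz2, a zinc finger factor, had 11 of 16 unpartnered (68.8%), Ank3 and Grip1, scaffold proteins of neurons and synapses, 8 of 13 each (61.5%), and Nfia, a nuclear factor of glia, 2 of 11 (18.2%).

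A wild-type peak was slightly more often unpartnered when the peak before it was. The next wild-type peak along the chromosome was unpartnered in 35.2% of cases after an unpartnered peak (interval 34.2 to 36.1) and in 27.9% after a partnered one (interval 27.3 to 28.4). This difference of 7.30 points was 3.51 points with the widest 50% of each list. Between neighbours both away from gene starts the shares were 50.5% and 44.1% (intervals 49.2 to 51.8 and 42.9 to 45.3). Between narrow ones of 300 bp or less they were 73.9% and 70.5%, and between neighbours at gene starts 14.5% and 11.9%, with overlapping intervals in both cases. Most runs were short: 4418 unpartnered peaks stood alone, and 1 run reached 12.

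Of the 10 longest runs, 6 held no protein-coding gene. The last places were tied among 4 runs of 8 peaks, and the tied runs left out of the 10 held genes. The share of all runs without a gene was not computed. The run of 12 covered 1748.3 kb at chr15:23489932-25238214 with no protein-coding gene and no knockout peak in it. A run of 10 at chr1:137222911-138120256 held 1 gene, Ptprc, the leukocyte phosphatase CD45, and another of 10 lay at chr14:52920375-53961175. On chromosome 10 a run of 9 covered 173.0 kb at Myrfl, a membrane-bound regulatory factor gene, and one of 8 lay at Samd5, with 6 of its peaks in gene bodies. A run of 8 spanned an olfactory receptor cluster on chromosome 2 with 91 genes, and another the axon guidance gene Robo1 with Gbe1, the glycogen branching enzyme. These peaks were narrow, with medians between 159 and 318.5 bp in the 10 longest runs.

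In windows of 1 Mb with at least 10 wild-type peaks, 1345 in all, the median share unpartnered was 29.2%, with quartiles of 19.2% and 39.3%, and 96 windows were above 50%. The highest was 84.6% (11 of 13, interval 57.8 to 95.7) at 137 to 138 Mb of chromosome 1. Next came the windows of Icos and Pard3b, an immune costimulator and a polarity protein (80.0%, 8 of 10), of Plcz1, the sperm factor that activates the egg, with Capza3 (78.6%, 11 of 14), and of Rab3c, Gapt and Plk2 (75%, 9 of 12). The window of Ifng and Il22, cytokine genes of chromosome 10, had 66.7% (14 of 21). Of the 10 highest windows 3 lay on chromosome 10. The intervals of the highest windows overlap one another, and their order is not resolved.

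By gene function, most groups lay near the values of all genes. Among the 11176 protein-coding genes with a wild-type peak at the start, the peak was unpartnered in 747 (6.68%) and split in 713 (6.38%). Of the 9610 with a one-to-one pair, 6897 (71.8%) were narrower in the knockout and 3426 (35.7%) were trimmed on both sides, and the median width ratio was 0.906. The groups below are read against these values. Over peaks at gene starts the unpartnered share fell with width, from 56.6% at 200 bp or less to 0.131% above 1500 bp. The split share rose with width, from 2.62% at 600 to 800 bp to 21.1% above 1500 bp. Neither share was matched for width in the groups. Among the lists with at least 30 pairs, the lowest median ratios were those of replication-dependent histone and cytosolic ribosomal protein genes, and the highest that of polycomb genes.

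Cytosolic ribosomal proteins, parts of the translation machinery, had 35 of 45 pairs narrower in the knockout. Of 58 cytosolic ribosomal protein genes with a wild-type peak, 9 were unpartnered (15.5%, interval 8.38 to 26.9), among them Rps2 (432 bp), Rpl19 (426 bp) and Rpl4 (319 bp). Their pairs were narrow in wild type, with a median of 404 bp against 818 bp for all genes. Of all gene-start peaks, 15.3% were unpartnered at 300 to 400 bp and 7.71% at 400 to 600 bp. The part of width in the unpartnered share was not tested. The median ratio of the 45 pairs was 0.783, and 71.1% lay below the median of pairs of like wild-type width (interval 56.6 to 82.3). For like mean width the share was 64.4% (interval 49.8 to 76.8), which includes an even split. Of the 12 pairs over the start, 4 came to begin downstream and 5 to end upstream, against 13.7% and 2.03% of all genes. Rps21 went from 778 to 175 bp, while Rpl14 and Rps6 were wider, from 169 to 390 bp and from 203 to 381 bp. Mitochondrial ribosomal protein genes had 4 of 66 unpartnered and a median ratio of 0.916, and 56.9% of their pairs lay below those of like wild-type width (interval 44.1 to 68.8).

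Replication-dependent histone genes, whose transcripts peak in S phase, had 7 of 56 unpartnered (12.5%, interval 6.19 to 23.6), 6 split and a median ratio of 0.747, with 36 of 41 pairs narrower. The median wild-type width of these pairs was 424 bp, and the part of width in the unpartnered share was not tested. Of these pairs 73.2% lay below the median of pairs of like wild-type width (interval 58.1 to 84.3) and 63.4% for like mean width (interval 48.1 to 76.4). H2ac6 went from 1136 to 326 bp, with 738 bp lost upstream, and H4c1 from 747 to 153 bp. H2ac23 and H2bc23 share 1 wild-type-only peak of 456 bp, as neighbouring histone genes often do, so these genes are not independent counts. H1f5, a linker histone, was wider, from 322 to 475 bp.

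Developmental transcription factors outside the Hox clusters, which direct cell fates in the embryo, were read at 67 genes with a wild-type peak. Of these, 12 were split (17.9%) and 11 unpartnered (16.4%, interval 9.42 to 27.1), and 23 of 41 pairs were trimmed on both sides. The pairs had a median wild-type width of 999 bp, against 818 bp for all genes. Of all gene-start peaks of 1000 to 1500 bp, 11.0% were split, and the part of width in the split share was not tested. With starts taken within 3 kb the unpartnered share was 10.8% (interval 5.58 to 19.9), which includes the 6.68% of all genes. Sox21 was split from 2383 to 1238 bp and Neurog1, a neuronal fate factor, from 1253 to 599 bp. Irx4 of the heart ventricle (886 bp), Olig3 of the neural tube (637 bp) and Gata3 of T cells (605 bp) were wild-type only. Ptf1a, a pancreas factor, went from 1098 to 411 bp, and Atoh1, a factor of hair cells, the other way, from 1287 to 1608 bp. Of 17 Hox genes with a peak, 14 of 15 pairs were narrower, with a median ratio of 0.825, and Hoxb1 was split. Of these pairs 73.3% lay below those of like wild-type width (interval 48.0 to 89.1, which includes an even split).

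Signalling genes were closer to all genes, with 2 of 42 unpartnered, Ihh (739 bp), a hedgehog ligand, and Wnt16 (631 bp). Wnt9a went from 1241 to 278 bp and Wnt2b from 1301 to 681 bp, while Nodal and Bmp4, ligands of the TGF-beta family, were wider. Forkhead genes had no unpartnered peak among 23 and 4 split, and imprinted genes, expressed from 1 parental copy, had none among 23 and 6 split (26.1%), of which Commd1 and Zrsr1 share a peak. Forkhead and imprinted pairs had median wild-type widths of 1393 and 950 bp, against 818 bp for all genes. The part of width in their split shares was not tested. Dio3 went from 833 to 267 bp and Rasgrf1, a paternally expressed exchange factor, from 1318 to 1888 bp.

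Polycomb genes, which encode repressors of developmental genes, had no unpartnered peak among 35 (interval 0 to 9.89, which includes the 6.68% of all genes) and a median ratio of 0.956, and 6 of 34 pairs (17.6%) were trimmed on both sides. Phc1 and Cbx6, subunits of the PRC1 complex, were wider, from 1140 to 1310 bp and from 1351 to 1500 bp, and Mtf2, a PRC2 partner, went from 191 to 409 bp. Bmi1, the PRC1 ring-finger partner, and Phc2 went the other way, from 1563 to 756 bp and from 860 to 186 bp. SWI/SNF, CHD and ISWI remodellers had 27 of 32 pairs narrower, with Arid1a split from 2184 to 1266 bp and Chd5, a testis and brain remodeller, unpartnered (891 bp). Histone methylation enzymes had 23 of 28 pairs narrower, with Setdb2 from 939 to 218 bp and Men1, menin, from 1109 to 389 bp.

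At the genes of INO80, SRCAP and H2A.Z itself, 18 of 24 pairs were narrower. Ino80, the deleted gene, had an outline of 863 bp in wild type and 487 bp in the knockout, with 12 bp lost upstream and 364 bp downstream; a peak list cannot check the deletion. Ino80b, a subunit of the complex, went from 959 to 480 bp, and Mcrs1, another subunit, was wild-type only (842 bp). Of the genes that encode H2A.Z, H2az1 had 372 bp in wild type and 483 bp in the knockout, and H2az2 262 and 247 bp. Smarca4, Pbrm1 and Kdm5c each lacked a partner, with narrow wild-type peaks of 236, 165 and 212 bp.

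**Figure D5:**
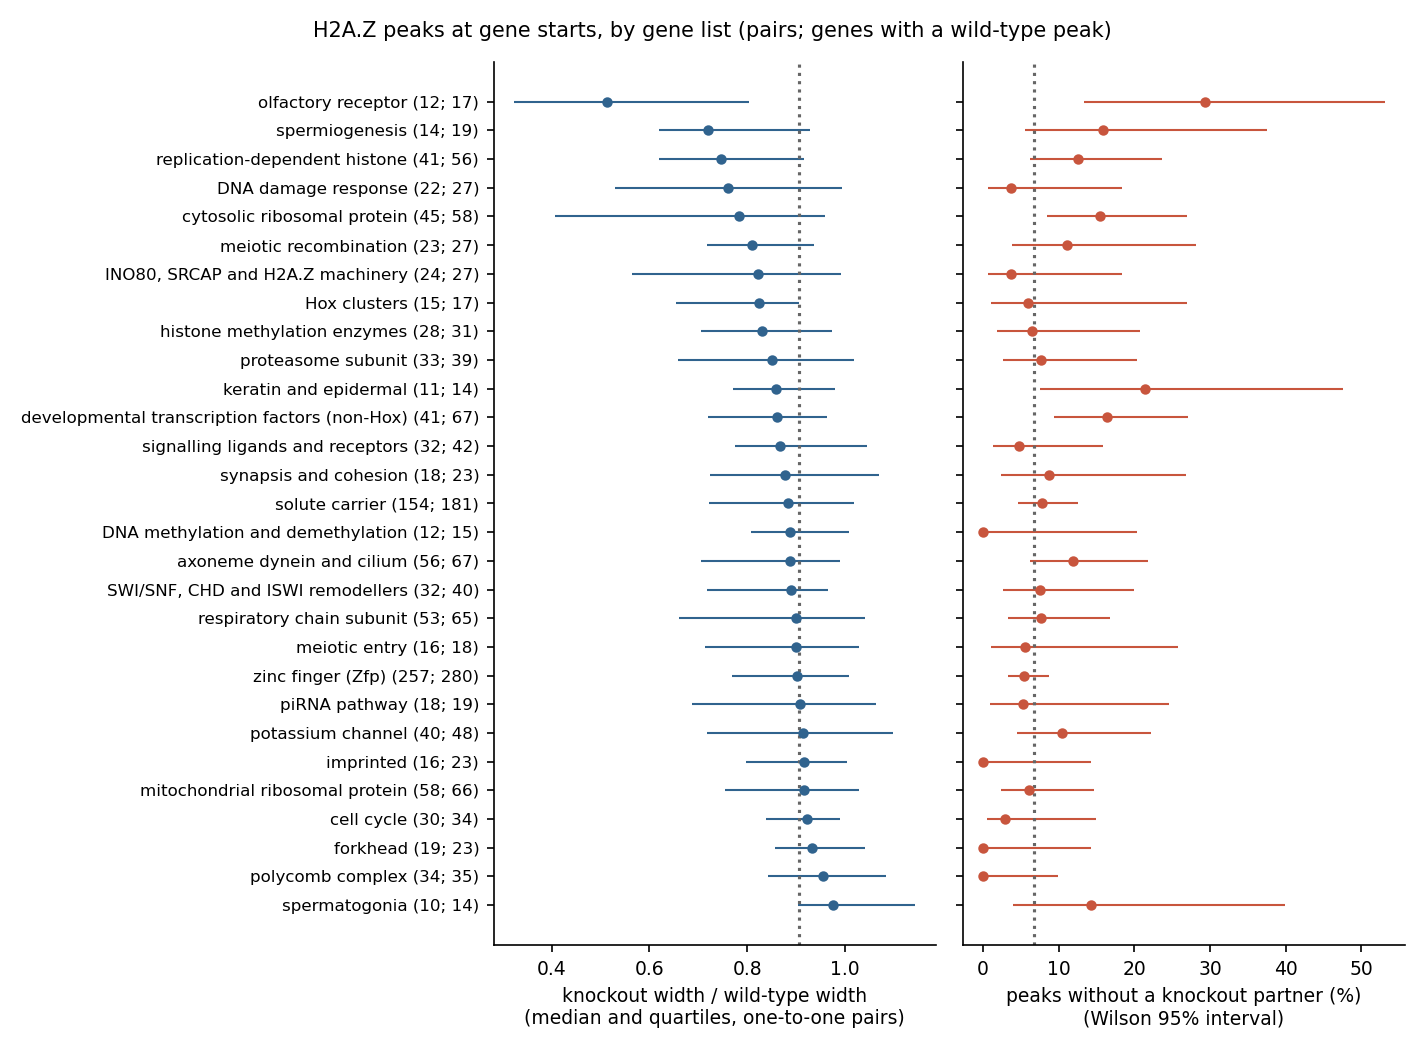
Ratio of knockout to wild-type H2A.Z width at gene starts (left x axis; points are medians, bars quartiles) and percent of wild-type peaks without a knockout partner (right x axis; bars are 95% Wilson intervals) for the gene lists with at least 10 pairs (y axis). Dotted lines are all genes, 0.906 and 6.68%, and the lists shown range from olfactory receptors with 0.513 upward, with cytosolic ribosomal protein genes at 0.783 and polycomb genes at 0.956.

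Genes of the germ line lay on both sides of the background. Spermatogonial genes had 10 pairs with a median ratio of 0.976; Uchl1, an enzyme of undifferentiated spermatogonia, went from 997 to 569 bp, Kit, the receptor of differentiating spermatogonia, from 1453 to 1391 bp, and Lin28a was wild-type only (316 bp). Among genes of meiotic entry, Stra8, the retinoic acid target that starts meiosis and gives the Cre its promoter, went from 595 to 222 bp, and Dazl, a germ-cell RNA-binding protein, from 506 to 198 bp. The wild-type Stra8 peak lay from 820 to 1414 bp after the start. Rec8, the meiotic cohesin, was wild-type only (523 bp).

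Meiotic recombination genes had 3 of 27 unpartnered (interval 3.85 to 28.1, which includes the 6.68% of all genes). Their median ratio was 0.809, with 19 of 23 pairs narrower. Of these pairs 69.6% lay below the median of pairs of like wild-type width (interval 49.1 to 84.4). For like mean width it was 65.2% (interval 44.9 to 81.2), and both intervals include an even split. Ankrd31 and Rec114, partners in the machinery that makes meiotic breaks, both lost the upstream side of the start, from 770 to 244 bp and from 710 to 235 bp. Dmc1, the meiotic recombinase, and Mei4, of the break machinery, kept the start, with 1066 to 802 bp and 1021 to 715 bp. Ccnb1ip1, a crossover factor also called HEI10, and Mus81, a crossover nuclease, were wild-type only, with 620 and 450 bp. In the synapsis and cohesion group Hormad1 went from 789 to 296 bp and Stag3 from 609 to 202 bp, while Sycp1, of the synaptonemal complex, went from 1 core length to 640 bp.

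DNA damage response genes had 4 of 27 split, with Rad51c from 1361 to 627 bp and Hus1 from 1220 to 761 bp, and Atm, a break-sensing kinase, went from 736 to 271 bp. The upstream edge of their 12 oriented pairs retreated by a median of 132.5 bp, against 24 bp over 7255 genes. No interval was computed for this median of few pairs. Of their 22 pairs, 68.2% lay below the median ratio of pairs of like wild-type width (interval 47.3 to 83.6). For like mean width it was 63.6% (interval 43.0 to 80.3), and both intervals include an even split. Spermiogenesis genes, which act after meiosis, had 3 of 19 unpartnered (interval 5.52 to 37.6, which includes the 6.68% of all genes). Of their pairs 9 of 14 were trimmed on both sides. Tekt1 of the sperm tail went from 944 to 344 bp and Odf2 of its outer dense fibres from 829 to 290 bp. Tekt3 and Tekt2 were wild-type only. In the piRNA pathway 12 of 18 pairs were narrower, with Exd1 from 1386 to 898 bp, and Piwil1 wider, from 183 to 270 bp. Ciliary genes had 8 of 67 unpartnered (11.9%); Cfap99 went from 1708 to 647 bp and Bbs1 from 163 to 690 bp.

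Other gene families showed how little of some groups carries H2A.Z. Of 940 olfactory receptor genes 17 had a wild-type peak at the start, 5 of them unpartnered, and the 12 pairs had a median ratio of 0.513, with Olfr56 from 962 to 256 bp. Zinc finger genes, a large family, matched all genes, with 15 of 280 unpartnered and a ratio of 0.902. Proteasome subunit genes had 6 of 13 outlines over the start that came to begin downstream, against 13.7% of all genes, among them that of Psmd1. Replication-dependent histone genes had 5 of 8 and solute carrier genes 6 of 91. No intervals were computed for these counts. Proteasome pairs had a median wild-type width of 576 bp, against 818 bp for all genes, and the part of width was not tested. Psmd13 went from 1004 to 205 bp. Potassium channel genes had 5 of 48 unpartnered, with Kcnip3 the widest (1091 bp), and Kcna2 went from 1030 to 149 bp.

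The cell type of the label was checked on marker genes. Of the 8 germ-cell markers with a listed start, 7 had an H2A.Z peak there in each list (Dazl, Ddx4, Dmc1, Kit, Stra8, Sycp1 and Tex14), and Sycp3 had none. Of the 5 Sertoli-cell markers 2 had one in wild type and 1 in the knockout, and of 4 Leydig-cell markers 2 had one in both. Acta2 of peritubular cells and Cd68 of macrophages, the only such markers with a listed start, had none. Of all 17274 protein-coding genes with a listed start, 64.7% had a wild-type peak there. Whether the few markers differ from that share was not tested. Over the marker genes and 5 kb around them, 6 of 17 germ-cell, 6 of 21 Sertoli, 0 of 6 Leydig and 4 of 6 peritubular and vascular wild-type peaks were unpartnered, with overlapping intervals. H2A.Z also marks genes that are off, so these peaks do not count cells, and the share of somatic cells in each list was not tested.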

How the data were processed

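H2A.Z was mapped by ChIP-seq in 2 libraries per genotype. The authors deposited 1 peak list per genotype with chromosome, start and end columns only, so the deposited positions carry no score, depth or p-value. Per the submitters' processing notes, Bowtie2, SAMtools, deepTools and MACS2 were used with mm10. What each tool did, its threshold and control, and how libraries were pooled, is not given in the sources used here. Depth per library is unknown, and the precision of each outline with it.

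Peaks were paired by an overlap of at least 1 bp into one-to-one, split, merged and unpartnered groups. Edges within 10 bp counted as equal. Gene starts and strands came from the RefSeq promoter table of GRCm38.p6, which lists a start for 17274 of 21631 protein-coding genes (79.9%) and none on chromosome 18; 3583 wild-type peaks near genes without a listed start were left out of comparisons by position. Gene extents came from the RefSeq gene table. A gene took its widest peak within 1 kb of the start. The members and the 34 gene lists were chosen with earlier results of these data known. List entries were matched by symbol, 3767 in all, 11 of them by an older symbol, and 13 were unmatched.

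Named genes are, per list, up to 4 with the largest width loss, 3 with the largest gain and 3 with the widest wild-type-only peak; genes of the 10 longest runs and 10 highest windows; at gene starts, the 10 largest midpoint shifts, trims on both sides, trims on 1 side and gains; the 10 peaks with most pieces and 10 joined peaks; the 10 widest knockout-only peaks; Ino80, H2az1 and H2az2. Widest wild-type-only peaks, uncovered starts, host genes, marker genes, the genes of the printed promoters and Mei4, Dmc1, Fanca, Rpl26, Psmd1 and Rpl39l were named after their values were seen. Rule genes not described are not reported here. Alternative overlaps, width limits, windows and tolerances were tried. The pairing and edge code was tested on simulated data. Tables were made with pandas 2.3.3, numpy 2.4.6 and scipy 1.17.1 under Python 3.11.15, and figures with matplotlib 3.10.9.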

Additional observations from a re-analysis of the deposited data

How the results depend on the processing

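No paired analysis was possible because each genotype has 1 list that pools its libraries, so neither a replicate block nor leaving out a library could be run. Of 71 recomputed values, 51 stayed within the counting interval of the reported value, 19 moved outside it without a reversal, and 1 reversed. The share of unpartnered wild-type peaks (30.1%) was 33.5% when an overlap as long as the DNA on a nucleosome core was required, 31.1% with 50% of the narrower peak, and 17.2% for the widest 75% of wild-type peaks against the full knockout list. The share of pairs trimmed on both sides (35.3%) was 44.1%, 15.5% and 3.41% with tolerances of 0 bp, 50 bp and that core length. With the widest 50% of each list, it was 34.2%, the median width ratio 0.918, the share of starts left upstream of the knockout outline 8.28%, and the share of gaps over a start 44.8% (from 67.0%). The share unpartnered on chromosome 10 (38.9%) was 42.7% with the core-length overlap, 23.3% for the widest 75% and 34.6% for the widest 50%. The difference between next neighbours (7.30 percentage points) was 4.45 for the widest 75% and 3.51 for the widest 50%. The share of intergenic minus that of gene-start peaks (37.2 points) was 40.1 with the core-length overlap, 27.2 for the widest 75% and 38.6 with a 500 bp start window. The 0.190 difference in width ratio at 600 to 800 bp was 0.048 by mean width and reversed to -0.031 by knockout width, both chosen after seeing the data. Among gene lists, only the unpartnered share and the median width ratio of some were recomputed, with other start windows and the nearest peak. These were the cytosolic ribosomal protein, replication-dependent histone, developmental transcription factor, spermiogenesis, meiotic recombination and polycomb lists. Their values stayed within the intervals of the reported ones. Other lists, and the split, trimming and edge values of all lists, were not recomputed. The cause of these changes was not tested. Depth is unknown, so a peak missing from a list can be one just under the threshold.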
